A study of Mus musculus with 2 samples.

Results

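The genes described here are 8 regulators linked to the self-renewal of blood stem cells: Hlf, Mecom, Mllt3, Meis1, Hoxa9, Hoxa10, Prdm16 and Msi2. They were chosen by symbol from the 27998 genes of the deposited matrices, and each symbol was carried by exactly 1 gene identifier. Droplet-based single-cell RNA sequencing was applied to the liver of a wild-type C57BL/6 mouse embryo at E12.5. According to the labels, cells of 1 liver were dissociated, sorted to remove debris, dead cells and doublets, and processed as 2 technical replicate libraries (WT liver rep1 and rep2, here library 1 and library 2), whereas the description of the series speaks of 2 suspensions. There is no second genotype, treatment or age, so cell types of 1 liver were compared, no test between animals was possible and no p-value is given.

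Stem cell self-renewal rests on transcriptional regulators that keep a small pool of cells undifferentiated while their progeny mature. HOXA proteins bind DNA together with TALE partners such as MEIS1, HLF is a PAR bZIP factor that marks cells arising from hemogenic endothelium, and MECOM and PRDM16 are related PRDM zinc finger proteins. The set also holds 2 proteins that are not sequence-specific DNA-binding factors: MLLT3 (AF9) reads acylated histones and recruits elongation and DOT1L complexes, and MSI2 binds RNA. In the foetal liver, stem and progenitor cells expand beside a large wave of erythropoiesis.

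Cell types were taken from the table that the authors deposited, which names 9 types: HPSC (hematopoietic progenitor and stem cells, spelled as in the table), Ery and Eryb (erythroid-committed progenitors and erythroblasts), EryP (primitive erythroid cells), Mk (megakaryocytes), G (granulocytic cells), Mo/KC (monocytes and Kupffer cells), EC (endothelial cells) and Hepa (hepatoblasts). HPSC made up 213 of 5480 kept cells in library 1 and 208 of 5057 in library 2. Their median depth was 16053 and 14956 unique molecular identifiers (UMIs, 1 per captured RNA molecule) per cell. All 3 defining markers were higher in HPSC than in the other cells in both libraries, with Cd34 at 384 and 370.3 UMIs per 1000000 (CPM) against 12.7 and 13.1. Of the 5 granulocytic markers, Mpo (740 and 725 CPM) and Prtn3 (531 and 588 CPM) were also higher in HPSC than in the rest, while Elane and Ngp were lower and Ly6g had no UMI in HPSC. Markers at least 2-fold higher in HPSC in both libraries were also 2 of 3 of mast cells and basophils (Cpa3 and Mcpt8), 2 of 2 tested of lymphoid cells (Il7r and Cd79a), 1 of 4 of Mo/KC (Csf1r) and 1 of 4 of EC (Pecam1). Among these, Cpa3 was at 25.2 and 27.2 CPM, Pecam1 at 29.9 and 24.6 CPM, Csf1r at 24.1 and 20.2 CPM and Il7r at 14.5 and 10.2 CPM in HPSC. Mcpt8 (0.580 and 0.640 CPM) and Cd79a (0.580 and 5.44 CPM) rested on few UMIs, with 26 and 30 in all kept cells. In library 1, both lay below the 0.870 CPM that 3 UMIs give in HPSC. Of all 12829 tested genes (at least 20 UMIs), 30.1% were at least 2-fold higher in HPSC in both libraries. The counts of 1 of 4 do not exceed that share. The libraries shared 31 barcodes, of which 0 belonged to HPSC, and median depth differed most in Mk (5699 against 16944.5 UMIs) and Eryb (5613 against 8982.5). The lower limit of kept cells also differed, with the shallowest at 504 UMIs in library 1 and 4387 in library 2.

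All 8 genes lie on the minus strand of the GRCm38 genome (GENCODE vM21 positions): Mecom on chromosome 3 from 29951296 to 30548008, Mllt3 on chromosome 4 from 87769925 to 88033364, Prdm16 on chromosome 4 from 154316125 to 154636873, Hoxa9 on chromosome 6 from 52223100 to 52231089, Hoxa10 on chromosome 6 from 52231197 to 52240854, Meis1 on chromosome 11 from 18879817 to 19018985, Msi2 on chromosome 11 from 88339382 to 88718513 and Hlf on chromosome 11 from 90336536 to 90390895. Hoxa9 and Hoxa10 are neighbours with 107 bases between them. No gene counted on the same strand overlapped any of the 8, but counted antisense genes overlapped Mecom (1), Meis1 (2), Prdm16 (3) and Msi2 (1), and how the counting treated strand is not given in the sources used here. RefSeq promoter windows (GRCm38.p6) were found for all 8 genes, 13 windows in all. The 250 bases before the start are printed for 4 genes because they span the patterns found here, with Hlf and Hoxa9 mostly found in HPSC, Prdm16 spread over types and Mllt3 mostly erythroid, together with a stretch of 30 bases before the first Msi2 start. Capitals mark matches, on either strand, to the motif letters searched, which were TGACAG for MEIS factors, AGATAA for the erythroid GATA factors, ACCACA for RUNX factors, CCGGAA for ETS factors and TGACGTCA for a cyclic AMP response element (CRE).
Hlf, chr11:90390918-90391167, minus strand: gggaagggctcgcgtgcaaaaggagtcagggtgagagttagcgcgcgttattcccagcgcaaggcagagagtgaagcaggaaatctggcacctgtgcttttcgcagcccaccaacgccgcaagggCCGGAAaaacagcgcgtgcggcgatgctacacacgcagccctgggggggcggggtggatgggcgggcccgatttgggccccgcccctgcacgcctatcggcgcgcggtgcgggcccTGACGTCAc
Msi2, chr11:88718428-88718457, minus strand: aacggggtgcgTGACGTCAccgcattggtt
Hoxa9, chr6:52227371-52227620, minus strand: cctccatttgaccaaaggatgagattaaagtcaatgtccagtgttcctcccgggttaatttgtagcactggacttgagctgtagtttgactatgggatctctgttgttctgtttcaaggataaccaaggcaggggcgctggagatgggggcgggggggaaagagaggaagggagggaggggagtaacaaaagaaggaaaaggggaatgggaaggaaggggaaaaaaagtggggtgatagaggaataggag
Prdm16, chr4:154636874-154637123, minus strand: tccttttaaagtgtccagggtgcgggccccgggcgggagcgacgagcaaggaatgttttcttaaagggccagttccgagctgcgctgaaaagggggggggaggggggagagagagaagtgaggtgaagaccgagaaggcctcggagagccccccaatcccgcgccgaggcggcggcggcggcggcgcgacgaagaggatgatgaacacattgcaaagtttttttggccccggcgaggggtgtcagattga
Mllt3, chr4:88033408-88033657, minus strand: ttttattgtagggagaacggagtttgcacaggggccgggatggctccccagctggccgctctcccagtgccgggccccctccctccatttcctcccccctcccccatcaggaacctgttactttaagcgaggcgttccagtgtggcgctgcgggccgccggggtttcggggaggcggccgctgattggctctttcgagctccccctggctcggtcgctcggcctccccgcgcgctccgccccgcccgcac

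The CRE letters stood 9 bases before the start of Hlf and 169 bases before the first start of Msi2, whose 3 windows overlap and all hold them. The CRE letters were chosen after these sequences had been seen, so their share is only a description. They occurred in 1.55% of all 32851 promoter windows of the same length, and the ETS letters, found in the windows of Hlf, Meis1 and Hoxa10, in 12%. TGACAG was found in the second windows of Mecom and Mllt3 and in 15.9% of all windows, ACCACA in the Meis1 window and in 14.0%, and AGATAA in none of the 13 and in 9.99%. No motif letters were found in the printed windows of Hoxa9, Prdm16 and Mllt3. The Hoxa9 window lies in an intron of the longer GENCODE gene. Just after their starts, Mecom and Prdm16 shared a run of 24 bases, the longest run common to their windows, which no other gene's window held. It is printed because these genes are paralogs that differ in the pattern described here, and it lies at bases 27 to 50 from the first Mecom start (chr3:30509710-30509733) and at bases 10 to 33 from the Prdm16 start (chr4:154636841-154636864). The windows searched for this run also held the first 50 bases after the start. In Mecom the run reached the last base of its window, so the shared stretch may be longer than 24 bases.
Mecom and Prdm16 shared run: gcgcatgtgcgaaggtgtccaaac
A match to a motif describes letters and not a bound site.

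To determine where these regulators are expressed, the UMIs of each gene were summed per cell type and divided by all UMIs of those cells. The highest level was found in HPSC for Hlf, Hoxa9, Hoxa10, Prdm16 and Msi2, in EC for Mecom, in Mk for Meis1 and in Eryb for Mllt3. Intervals are exact 95% intervals for counting error only, because cells of 1 liver are not replicates, and neighbouring types are called apart only where their Poisson intervals did not overlap and both libraries gave the same order. In CPM of all UMIs, HPSC stood apart from the next type for Hlf, Hoxa9, Hoxa10 and Msi2, but not for Prdm16. For Hoxa10 the next type was Ery, while the interval of EC (0 UMIs, up to 4.45 CPM) overlapped that of HPSC (4.35 to 8.29 CPM).

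**Figure D1:**
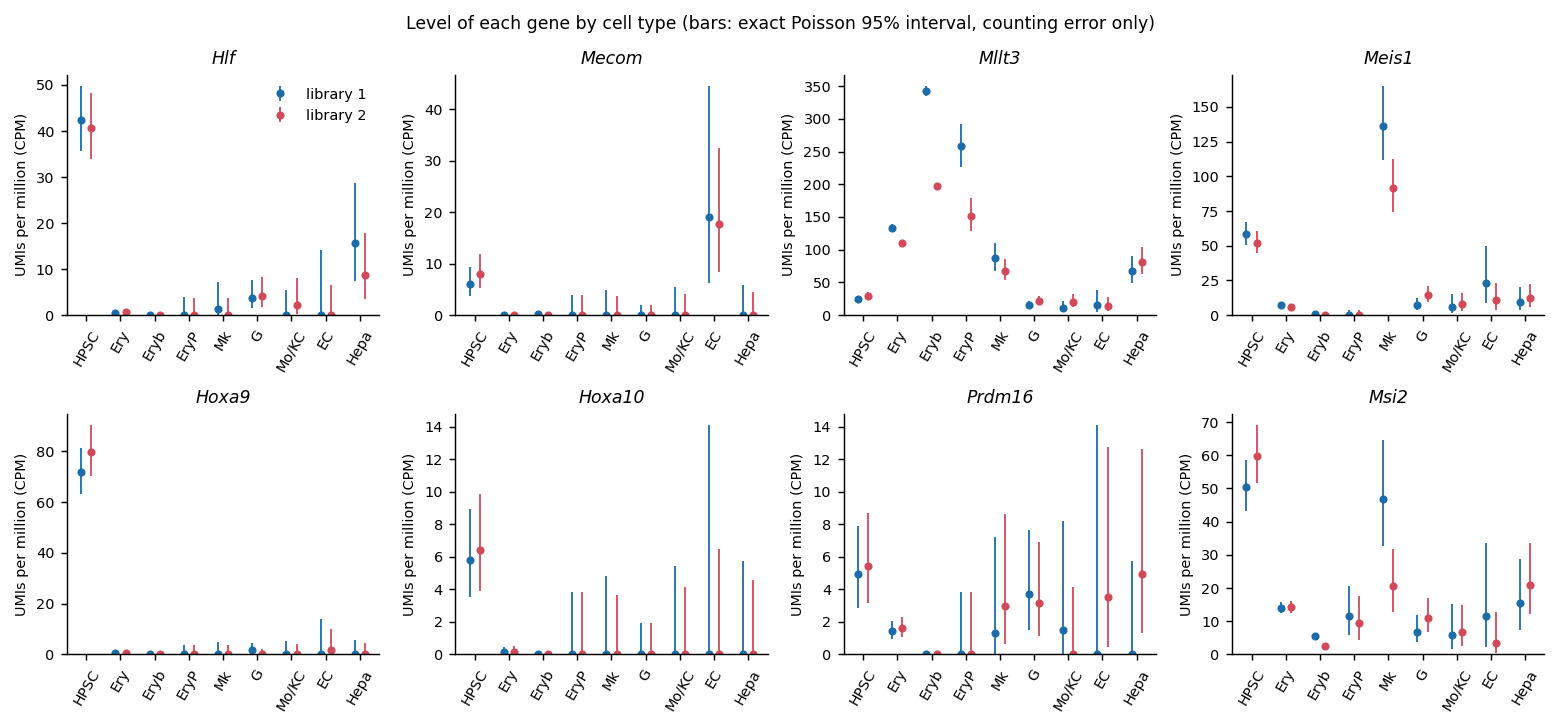
UMIs per 1000000 (CPM, vertical axis, its own scale in each panel, starting at 0) of each of the 8 genes in the 9 cell types (horizontal axis), with library 1 in blue, library 2 in red and bars for the exact Poisson 95% interval of counting error. Hoxa9 reached 71.9 and 79.7 CPM in HPSC and stayed at or below 1.76 CPM in every other type, while Mllt3 was highest in Eryb at 343 and 197 CPM and Meis1 in Mk at 136 and 91.7 CPM.

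Hoxa9 and Hoxa10 encode abdominal-type homeodomain factors that are well known in stem cells and leukemia. Hoxa9 had 248 UMIs in HPSC of library 1 and 249 in library 2, which gave 71.9 and 79.7 CPM. Outside HPSC it had 35 UMIs in all kept cells, so that HPSC held 93.4% of its 532 UMIs in kept cells and its level there was 234-fold that of all other cells (95% interval 166 to 339). No Hoxa9 UMI was found in EryP, Mk, Mo/KC or Hepa. Against Mk, where a count of 0 was set to the floor of 3 UMIs over both libraries, the level was 44.96-fold higher in HPSC. The exact 95% interval of this ratio began at 36.4. Hoxa10 had 20 UMIs in HPSC of each library (5.80 and 6.40 CPM) and 7 UMIs in all other cells, 6 of them in Ery. HPSC thus held 85.1% of its UMIs, and the level was 94-fold that of the other cells (41.7 to 249). Of the other 9 listed HOXA genes, 4 had at least 20 UMIs, and 3 of these were at least 2-fold higher in HPSC in both libraries (Hoxa3, Hoxa5 and Hoxa7), a fold that 30.1% of all tested genes reached. Hoxa7 had a distribution like that of Hoxa9, with 51.3 and 71.1 CPM in HPSC against 0.309 and 0.201 CPM in the other cells. No UMI of Hoxa11 or Hoxa13 was found in kept cells.

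Meis1, the TALE cofactor of HOXA proteins, followed another pattern. In HPSC it had 202 UMIs (58.6 CPM) in library 1 and 163 UMIs (52.2 CPM) in library 2, and in Mk it had 105 UMIs (136 CPM) and 93 UMIs (91.7 CPM). The level in Mk was 2.00-fold that in HPSC (1.67 to 2.38), and both libraries gave this order, with ratios of 2.33 and 1.76. EC, G, Hepa, Mo/KC and Ery followed at 6.51 to 14.5 CPM and were not apart from their neighbours, and Eryb was lower at 0.485 CPM. HPSC held 39.9% of the Meis1 UMIs. Of the 12 listed Hox and TALE partners, 9 had at least 20 UMIs, and Hoxb4, Pbx2 and Pbx4 were at least 2-fold higher in HPSC than in the other cells in both libraries. This count of 3 of 9 was near the share of all tested genes (30.1%). Pbx3 (6.96 and 3.84 CPM against 12.3 and 7.65) did not reach this fold in either direction, and Meis2 had 1 UMI in HPSC.

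Hlf was most abundant in HPSC, with 146 UMIs (42.3 CPM) in library 1 and 127 UMIs (40.6 CPM) in library 2. Hepatoblasts came second with 10 and 7 UMIs (15.6 and 8.64 CPM), in 9 of 33 and 7 of 31 cells. The level in HPSC was 3.54-fold that in Hepa (2.17 to 6.17) and 10.5-fold that in G (6.25 to 19.0), where 7 and 8 UMIs were counted. Hlf was thus found both in the blood progenitors and in the parenchymal cells of the liver, and in Ery it was at 0.525 and 0.723 CPM. HPSC held 81.7% of its 334 UMIs. The related PAR bZIP genes Dbp and Tef were also higher in HPSC than in the other cells in both libraries (Dbp 5.51 and 6.40 CPM against 1.67 and 1.38, Tef 10.7 and 7.68 CPM against 1.67 and 1.49).

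The PRDM paralogs Mecom and Prdm16 differed from each other. Mecom had 21 and 25 UMIs in HPSC (6.09 and 8.001 CPM) and 5 and 10 UMIs in EC (19.1 and 17.6 CPM), which are only 20 and 26 cells. Over both libraries the level in EC was 2.59-fold that in HPSC (1.34 to 4.72), but the interval of each library alone included 1 (0.923 to 8.54 and 0.945 to 4.75). Together, HPSC and EC held all but 6 of the 67 Mecom UMIs, and none was found in EryP, Mk, G, Mo/KC or Hepa. Prdm16 had 17 UMIs in HPSC of each library (4.93 and 5.44 CPM) and was spread over more types. It had 7 and 6 UMIs in G (3.70 and 3.17 CPM) and 27 and 29 UMIs in Ery (1.42 and 1.61 CPM), and its level in HPSC was 1.51-fold that in G (0.775 to 3.11). HPSC held 29.1% of the 117 Prdm16 UMIs against 68.7% of those of Mecom, and with so few UMIs no type was apart from its neighbour in the order of Prdm16. Types further from each other in this order did differ. The Prdm16 intervals of G (1.83 to 5.87 CPM), Mk (0.611 to 5.74) and Ery (1.14 to 1.96) lay above that of Eryb (0.0104 to 0.147). Both libraries gave that order.

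Msi2, the RNA-binding member, was found at 174 UMIs (50.5 CPM) and 187 UMIs (59.9 CPM) in HPSC and remained detectable in every type. Its level in HPSC was 3.88-fold that in Ery (3.38 to 4.44) and 6.55-fold that in all other cells (5.78 to 7.40). The difference between HPSC and Mk varied in size: Mk had 46.8 CPM in library 1, for a ratio of 1.08 whose interval included 1 (0.750 to 1.59), and 20.7 CPM in library 2, for a ratio of 2.89 (1.84 to 4.78). Mk cells of library 1 were also the shallower ones, and the part of depth in this difference was not tested. In EryP, globin took 76.7% and 82.5% of the UMIs, and without globin UMIs the 11 and 9 Msi2 UMIs there gave 49.2 and 53.4 CPM against 51.3 and 61.7 CPM in HPSC. Its paralog Msi1 had 8 UMIs in all kept cells and none in HPSC.

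Mllt3 went the opposite way to the other members. HPSC had 83 UMIs (24.1 CPM) in library 1 and 89 UMIs (28.5 CPM) in library 2, whereas Eryb had 8317 and 6993 UMIs (343 and 197 CPM), EryP 258 and 152 CPM and Ery 134 and 110 CPM. The level in Eryb was 9.79-fold that in HPSC (8.43 to 11.5), and 97.5% of the 20741 Mllt3 UMIs were in erythroid cells against 0.829% in HPSC. Mk and Hepa lay between, at 76.2 and 75.2 CPM, and G (17.95 CPM), Mo/KC (16.0 CPM) and EC (14.5 CPM) came last. Over both libraries, HPSC had 1.46 times the level of G (1.09 to 1.96), 1.64 times that of Mo/KC (1.07 to 2.60) and 1.81 times that of EC (1.01 to 3.57). In library 2, the intervals against G (0.920 to 2.01) and Mo/KC (0.838 to 2.47) included 1. Against EC, the interval of each library included 1 (0.593 to 5.92 and 0.981 to 4.82). By the rule above, HPSC, G and Mo/KC were not apart from the next type. The gap between libraries in Eryb moved with globin RNA, which took 36.7% of the Eryb UMIs in library 1 and 59.2% in library 2. Without globin UMIs, Eryb had 542 and 483 CPM, EryP 1106 and 872 CPM and HPSC 24.5 and 29.4 CPM, so that EryP became the highest type. Of the 7 listed genes linked to MLLT3, Men1 and Aff4 were at least 2-fold higher in HPSC in both libraries. Aff1 was at least 2-fold lower (3.48 and 4.16 CPM against 12.4 and 8.44), and Dot1l, Kmt2a, Mllt10 and Psip1 did not reach this fold in both libraries. Of all tested genes, 30.1% were higher and 6.21% lower by this fold.

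Next, the members were counted against the background of all genes. In both libraries, 7 of the 8 members were at least 2-fold higher in HPSC than in all other cells summed, a fold that 30.1% of 12829 tested genes (at least 20 UMIs) reached, and Mllt3 was at least 2-fold lower, like 6.21% of genes. The same 7 members were at least 4-fold higher, which held for 13.1% of genes. Summed other cells are mostly erythroid, so HPSC was also compared with single types. Against Eryb, 7 members were at least 2-fold higher in HPSC (56.8% of genes) and Mllt3 was lower (5.28% of genes). Against Ery, 7 members were higher (22.1%) and Mllt3 was lower (5.06%). Eryb are cells of few genes (median 1212 per cell against 3659 in HPSC), and most tested genes were higher in HPSC than in them. Against G, 6 members were higher (6.36% of genes) and 0 lower (4.79%), and against Mo/KC, 4 were higher (5.25%) and 0 lower (7.39%). Against EC, 4 members were higher (3.92%) and Mecom was lower (11.0%). Against Mk, 2 members were higher (5.40%) and Mllt3 was lower (8.92%). Mecom and Hoxa10 had 0 UMIs in Mk and Mo/KC, and Hoxa10 also in EC. There the floor of 3 UMIs per library held their folds under 2 in library 1 (against Mk, 1.56 for Mecom and 1.49 for Hoxa10). These comparisons were therefore not decided. Over both libraries, the levels in HPSC were at least 4.16-fold (Mecom) and 3.62-fold (Hoxa10) those in Mk.

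Other regulators and surface genes of stem cells were counted in the same way, against the same 30.1% of tested genes higher and 6.21% lower. Of 18 further stem cell factors, 11 were at least 2-fold higher in HPSC than in the other cells in both libraries, among them the oncofoetal gene Hmga2 (416 and 417 CPM against 9.44 and 9.73), Mycn (112 and 102 CPM against 1.92 and 1.85) and the ETS factor Erg (31.3 and 25.3 CPM against 1.36 and 1.24). Tal1 (30.4 and 31.0 CPM against 180.4 and 131) and Gfi1b (29.0 and 24.3 CPM against 87.0 and 61.9), which also act in erythroid cells, were lower. Of 10 tested surface genes, 9 were higher, and Slamf1 did not reach the fold (1.74 and 1.28 CPM against 1.73 and 1.56). The proliferation marker Mki67 was lower in HPSC (71.6 and 58.9 CPM against 372 and 253), whereas Mcm5 did not differ by this fold (159 and 174 CPM against 161 and 134).

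Droplets without a cell hold RNA released from other cells, and barcodes with 1 to 50 UMIs were taken as its measure (787639 barcodes). Mllt3 made up 171 CPM of this free RNA (158 to 184), Msi2 15.3, Meis1 7.37, Hoxa9 3.05, Hlf and Mecom 2.54 each and Hoxa10 2.29 CPM, and no UMI of Prdm16 was found. The level of Hbb-bs in HPSC allowed free RNA to make up at most 7.59% of their UMIs in library 1 and 6.63% in library 2. At that share, free RNA would have given 81.5 of the 172 Mllt3 UMIs in HPSC, but 7.499 of the 361 Msi2 UMIs, 3.495 of the 365 Meis1 UMIs and at most 1.51 UMIs of each of the others. In G (68 UMIs), Mo/KC (25) and EC (12), the counting intervals of Mllt3 included 64.6, 26.1 and 13.3 UMIs, the numbers computed for free RNA at 10% of each cell. At 5%, the numbers were 32.3, 13.1 and 6.66 UMIs, below the intervals of G and Mo/KC and within that of EC. At 20%, they were 129, 52.3 and 26.6 UMIs, above each interval. How much free RNA these types held was not tested. In contrast, the Mecom UMIs in EC (15 against 0.391), the Hlf UMIs in Hepa (17 against 0.720) and the Meis1 UMIs in Mk (198 against 2.59) lay above the numbers computed at 20%.

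Levels were then followed through the 6 erythroid subclusters of the deposited table, of which Ery 1 and Ery 2 make up Ery and Ery 3 to Ery 6 make up Eryb. Meis1 was found at 13.5 and 10.4 CPM in Ery 1 and at 0.544 and 0.689 CPM in Ery 2, a 19.5-fold difference (10.7 to 39.7). Msi2 was lower stepwise, at 16.8, 11.4, 6.74 and 3.28 CPM in Ery 1 to Ery 4. It was 1.71 CPM in Ery 5 and 2.76 CPM in Ery 6, with overlapping intervals. Globin took 36.7% and 59.2% of the UMIs of Eryb but 2.15% and 4.82% of those of Ery, which lowers CPM of other genes in Eryb. Without globin UMIs, Msi2 was at 14.4 and 14.95 CPM in Ery and at 8.72 and 6.56 CPM in Eryb. Hlf and Hoxa9 had 20 UMIs each in Ery 1 (1.04 CPM each) and 3 and 4 UMIs in Ery 2, and Prdm16 had 43 UMIs (2.24 CPM) in Ery 1, 13 UMIs (0.727 CPM) in Ery 2 and 3 UMIs in the 4 subclusters of Eryb. Mllt3 again went the other way. It was 78.2 and 65.6 CPM in Ery 1, 193 and 156 CPM in Ery 2 and 308 and 213 CPM in Ery 3, lower in Ery 5 (169 and 95.8 CPM) and highest in Ery 6 (605 and 296 CPM). Both libraries gave the same order of the 6 subclusters except that Ery 2 and Ery 4 changed places.

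**Figure D2:**
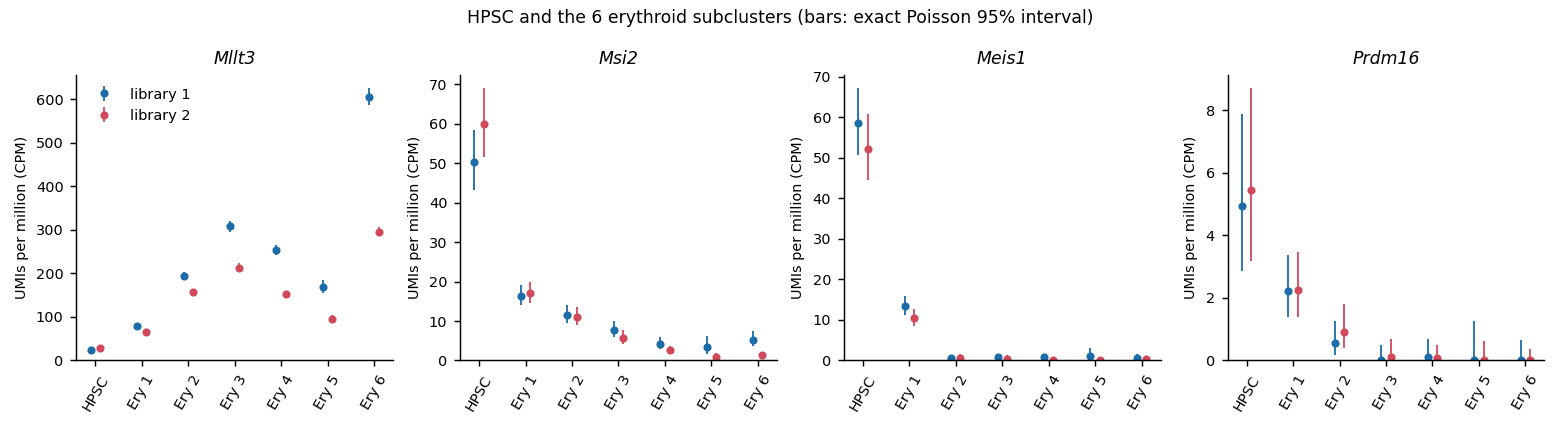
UMIs per 1000000 (CPM, vertical axis, its own scale in each panel, starting at 0) of Mllt3, Msi2, Meis1 and Prdm16 in HPSC and in the 6 erythroid subclusters (horizontal axis), with library 1 in blue, library 2 in red and bars for the exact Poisson 95% interval. Meis1 dropped between Ery 1 (12.01 CPM over both libraries) and Ery 2 (0.615 CPM), Msi2 was lower stepwise from Ery 1 to Ery 4, and Mllt3 was highest in Ery 6 (409 CPM).

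At the level of single cells, the members were found in different shares of HPSC. Meis1 had a UMI in 122 of 213 cells of library 1 and 105 of 208 of library 2 (53.9% over both, 49.0 to 58.8%), Msi2 in 106 and 105 cells (50.1%), Hoxa9 in 103 and 104 cells (49.2%) and Hlf in 80 and 73 cells (36.3%). Mllt3 was found in 53 and 54 cells (25.4%), Mecom in 17 and 22 (9.26%), Hoxa10 in 17 and 16 (7.84%) and Prdm16 in 14 and 16 (7.13%). In Eryb, a type that should lack most of these genes, the share was 2.95% for Msi2, 0.390% for Meis1 and at most 0.0942% for Hlf, Mecom, Hoxa9, Hoxa10 and Prdm16, at a median depth of 7287 UMIs against 15462 in HPSC. Mllt3 could not be read against Eryb, where 74.4% of cells held it, and its share in HPSC (interval 21.3 to 29.9%) overlapped in interval with that in EC (23.9%, 12.6 to 38.8%) and Mo/KC (16.7%, 10.3 to 24.8%) but not with that in G (13.2%, 9.54 to 17.7%). After each cell had been thinned to 3600 UMIs, with 2 shallower HPSC cells left out, the shares in HPSC were 22.2% for Hoxa9, 19.2% for Meis1, 18.1% for Msi2, 14.6% for Hlf, 9.14% for Mllt3, 3.17% for Mecom, 2.53% for Hoxa10 and 1.80% for Prdm16. At that depth, Meis1 was found in 34.0% of Mk and Mecom in 6.40% of EC, again above their shares in HPSC. A cell without a UMI may still express the gene. Thinning can only lower a share, so the lower shares at 3600 UMIs follow from the procedure for any gene.

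Most HPSC held at least 2 of these genes. At least 1 member was found in 374 of 421 cells (88.8%), at least 2 in 68.2%, at least 3 in 45.1% and at least 5 in 11.2%. The highest number was 7 members in 1 cell, reached by 3 cells of library 2, and cells with at least 3 members were not deeper (median 14385.5 UMIs) than all HPSC (15462). Leaving out Mllt3, at least 3 of the other 7 members were found in 83 of 213 HPSC in library 1 and 82 of 208 in library 2, or 39.2% over both (34.5 to 44.0%). This combination was found in 13 of 1750 Ery (0.743%), 4 of 64 Hepa (6.25%), 2 of 135 Mk (1.48%), 2 of 287 G (0.697%) and 1 of 46 EC (2.17%). It was found in 0 of 7432 Eryb, which allows a share of up to 0.0404%, in 0 of 288 EryP (up to 1.04%) and in 0 of 114 Mo/KC (up to 2.63%). These limits, from 3 counts of the total, hold for cells with such UMIs at the depth of each type (median 7287, 6239.5 and 13551.5 UMIs) and not for cells that express the genes. The interval of Hepa (1.73 to 15.2%) and that of Ery (0.396 to 1.27%) lay below that of HPSC, although both types were deeper (median 22346 and 22845.5 UMIs).

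To describe how often the members occur in the same HPSC cells, cells with both genes of a pair were compared with the number that the product of the single shares gives, summed over 4 classes of depth within each library. Of the 28 pairs, 20 were above the product in both libraries, 0 were below it in both and 8 changed sides. Any excess counted as above, however small, as for Mecom with Msi2 in library 2 (12 cells against 11.75). How many pairs of other genes would be above was not computed. Hlf was above with all 7 other members, among them Mecom (29 cells against 17.4), Mllt3 (56 against 39.0), Hoxa9 (101 against 78.1) and Hoxa10 (23 against 13.8). The highest ratios were those of Hoxa10 with Mecom (9 cells against 3.93, 2.29-fold) and with Mllt3 (18 against 8.13, 2.21-fold). The neighbouring genes Hoxa9 and Hoxa10 were found together in 12 cells of library 1 against 8.36 and in 14 cells of library 2 against 8.21. Msi2 pairs, in contrast, had a median ratio of 1.06 over 7 pairs, with the highest for Hoxa10 (24 cells against 17.7). Prdm16 was above in both libraries only with Hlf (13 cells against 10.3), its median ratio was 0.968, and with Mecom it was found in 2 cells against 2.67. Pairs share genes and cells and are not independent, and no test was made.

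**Figure D3:**
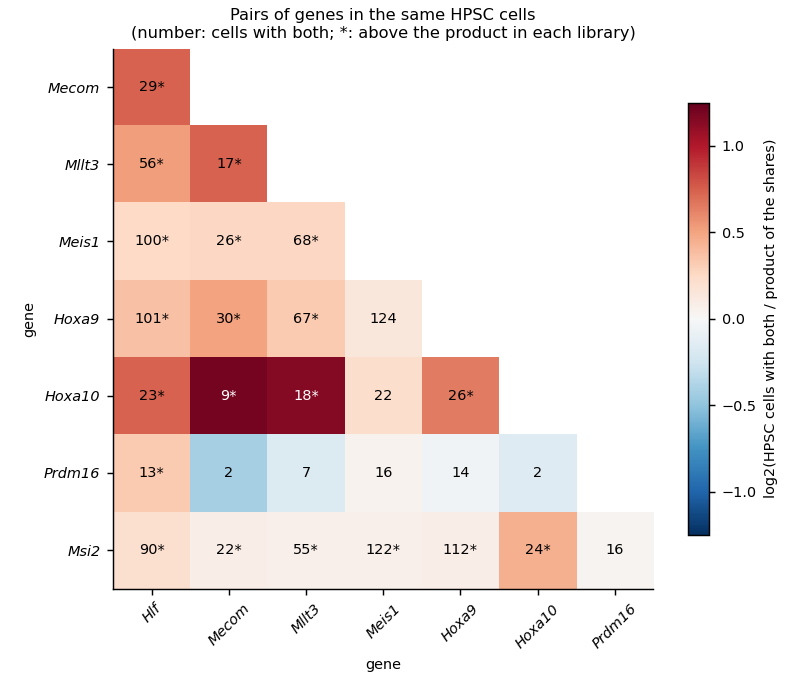
Pairs of the 8 genes (both axes) in the 421 HPSC cells, where the number is the count of cells with a UMI of both, the color is the log2 ratio of that count to the product of the single shares within depth classes, and a star marks pairs above the product in each library. The 20 starred pairs include all 7 of Hlf, and 6 of the 7 Prdm16 pairs have no star. Any excess over the product gave a star, however small.

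Hlf and Mecom are widely used to mark stem cells within progenitor populations, and HPSC were therefore split by whether a cell held a UMI of either. This gave 87 of 213 cells in library 1 and 76 of 208 in library 2 with such a UMI (163 in all, of which 29 held both genes), and the levels of Hlf and Mecom themselves are fixed by the split. Cells with a UMI were somewhat shallower, with a median of 13950 against 16214 UMIs. Hoxa10 was 6.07-fold higher in them (2.82 to 14.5), with 16 against 4 UMIs in library 1 and 15 against 5 in library 2. Hoxa9 was 2.51-fold higher (2.09 to 3.02), with 112 against 46.9 CPM in library 1 and 136 against 50.9 CPM in library 2. Among cells without a UMI of 7 lineage genes, a choice made after seeing the data that left 11 against 17 cells, the ratio was 4.31 for Hoxa9, 4.07 for Msi2, 2.51 for Mllt3 and 1.005 for Meis1. No interval was computed for these ratios from few cells. In the split of all HPSC, Mllt3 had a ratio of 2.12 (1.56 to 2.91, with 2.58 and 1.82 in the libraries). The free RNA gene Hbb-bs was at 8780 against 8837 CPM. The part of free RNA in the Mllt3 ratio was not tested. The ratios of Msi2 (1.70, 1.37 to 2.095) and Meis1 (1.66, 1.34 to 2.05) were lower, with Meis1 at 1.27 in library 1 and 2.28 in library 2, and that of Prdm16 was not resolved (1.39, 0.658 to 2.89). Hoxa9 and Hoxa10 were the 2 of 6 tested members that were at least 2-fold higher in both libraries, a fold that 1.55% of 9601 tested genes reached.

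Genes of other fixed lists were described in the same split, in which 1.55% of 9601 tested genes were at least 2-fold higher and 0.750% lower in both libraries. Of 9 tested surface genes, 5 were at least 2-fold higher in both libraries, among them Procr, the endothelial protein C receptor (13.7 and 43.3 CPM against 3.28 and 1.94), Esam (31.9 and 46.2 against 8.92 and 10.7), Ly6a, which encodes SCA-1 (15.9 and 16.0 against 4.22 and 5.82), and Tek (7.59 and 5.65 against 2.35 and 2.42). The progenitor markers Cd34 (ratio 1.06, 0.971 to 1.15) and Cd48 (1.096, 0.968 to 1.24) did not reach this fold, and Flt3, a receptor of multipotent and lymphoid-primed progenitors, had a ratio of 0.750 (0.612 to 0.915). Of 16 tested stem cell factors, Nkx2-3 (5.11, 3.03 to 8.97) and Mycn (2.89, 2.48 to 3.38) were at least 2-fold higher in both libraries. Runx1 (0.955, 0.804 to 1.13) and Hmga2 (0.943, 0.871 to 1.02), which are abundant in HPSC as a whole, did not reach it. Among the 6 genes of quiescence and the cell cycle, Cdkn1c, which encodes the cell cycle inhibitor p57, was 2.69-fold higher (2.07 to 3.51). Cdkn1a, which encodes the inhibitor p21, went the other way (0.705, 0.497 to 0.986). Of the proliferation genes, Top2a had a ratio of 1.28 (1.13 to 1.45), Mki67 had 0.746 in library 1 and 1.04 in library 2, and Mcm5 (0.946) and Pcna (0.952) lay near 1. Hoxa5 was the 1 of 2 tested further HOXA genes at least 2-fold higher (2.53, 1.55 to 4.17), and Hoxa7 had a ratio of 1.54 (1.26 to 1.88). No gene of the lists of TALE partners, paralogs or genes linked to MLLT3 reached the fold in both libraries.

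**Figure D4:**
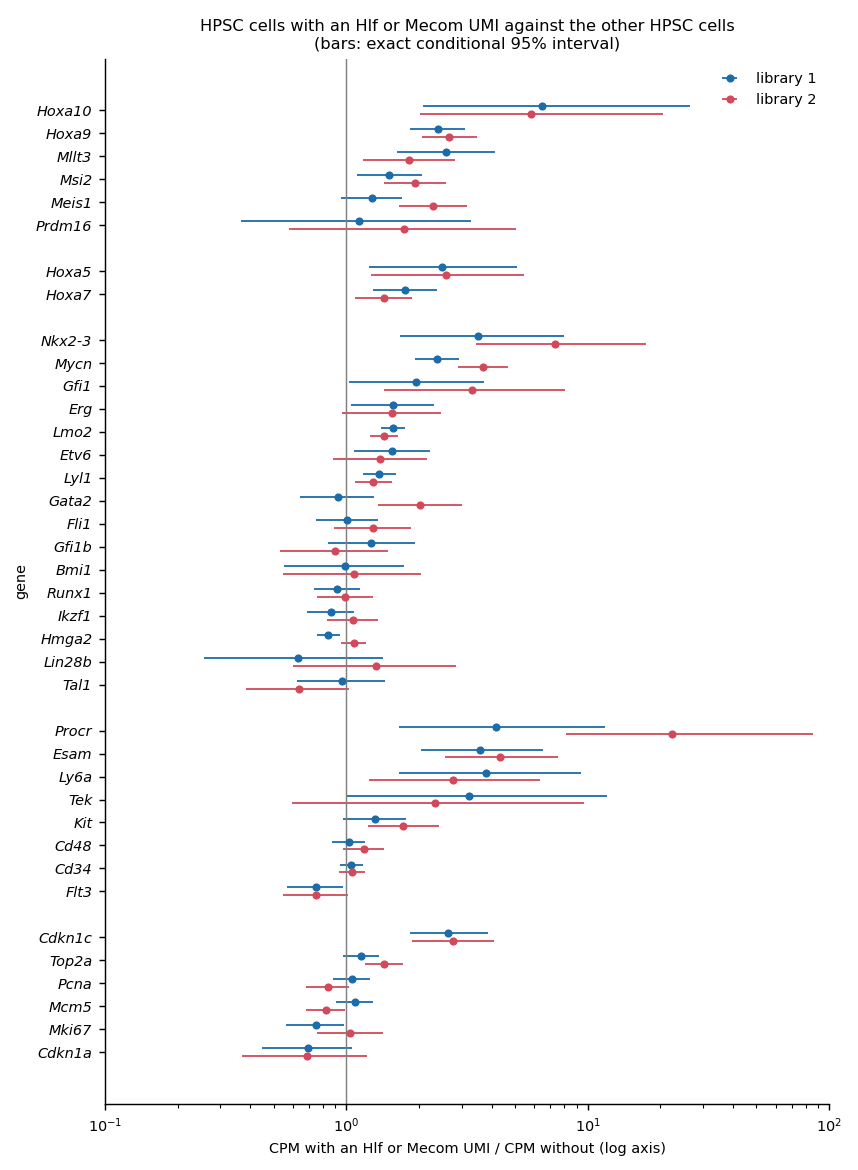
Ratio of the CPM in HPSC cells with an Hlf or Mecom UMI to the CPM in the other HPSC cells (horizontal log axis) for tested genes of 5 lists (vertical axis, from the top: the members, HOXA genes, stem cell factors, surface genes, and quiescence and cell cycle genes), with library 1 in blue, library 2 in red, bars for the exact conditional 95% interval and a grey line at 1. Hoxa10, Hoxa9, Nkx2-3, Mycn, Procr, Esam, Ly6a, Tek, Hoxa5 and Cdkn1c lie to the right of 2 in both libraries, while Cd34, Runx1 and Hmga2 lie near 1.

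Some markers of other lineages moved with this split and are given beside it. Among the tested markers of other lineages, the monocyte marker Csf1r (11.3 against 28.4 CPM) and the lymphoid marker Il7r (4.62 against 16.9 CPM) were at least 2-fold lower in cells with an Hlf or Mecom UMI in both libraries, a fold that 0.750% of tested genes reached. Each was the 1 tested marker of its list. None of the tested markers of erythroid cells (4), EryP (2), Mk (3), G (3), Hepa (2), EC (1) or mast cells and basophils (1) reached this fold in either direction. Mpo (571 against 824 CPM) and Prtn3 (418 against 638 CPM) had ratios of 0.693 and 0.655. The primitive erythroid globin Hba-x was 31.9 against 18.8 CPM in library 1 and 13.2 against 277 CPM in library 2, so its order differed between libraries. C1qa, Cd5l, Ly6g and Dntt had no UMI on either side. By the rule of the 10 lowest genes in library 1, Cox6a2 (0.759 against 33.8 CPM), Ly86 (3.03 against 43.7), Tmem108 (1.52 against 25.3) and Clec12a (3.03 against 27.7) were also lower in library 2, at 0.942 against 50.9, 2.83 against 29.6, 2.83 against 31.5 and 0.942 against 17.9 CPM. Ccr2 (0.759 against 39.4 CPM) and Tcf7 (1.52 against 23.0) were lower in library 1 but not in library 2 (17.9 against 12.1 and 7.54 against 3.39 CPM). Of the 10 highest genes in library 1, Fn1 (15.2 against 1.41 CPM) and Chil5 (15.9 against 2.35) had ratios of 9.33 and 13.6 in library 2, and all 10 were above 1 there. The library 2 intervals of Gbp2 (0.334 to 34.9) and Btbd3 (0.895 to 6.49) included 1. The part of mixed lineages in the ratios of the members was not tested.

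Finally, genes with the most similar pattern over the 18 values of 9 types in 2 libraries were listed among 10532 genes with at least 100 UMIs, as a description. Hoxa9 was closest to Ccr9 (r = 0.997), Gm5111 (0.996) and Lax1 (0.994), and Hlf to Smim6 (0.927), Tox (0.920) and Pglyrp2 (0.920). Meis1 was close to Gm15706 (0.955) and Bcr (0.946), Msi2 to Thnsl1 (0.878), and Prdm16 to Zfp12 (0.901). Mllt3 was closest to Gclm, which encodes a subunit of the glutathione-synthesizing ligase (0.944), Josd2 (0.938) and the erythroid spectrin gene Sptb (0.938). Among the members, the most similar pairs were Hlf and Hoxa9 (0.875) and Meis1 and Msi2 (0.793), and Mllt3 had a negative r with each of the 5 others compared (-0.465 to -0.0808). Of the 21 listed pairs of a member, or the sum of the 8, with a similar gene, 11 were listed again on the log2(CPM + 1) scale and 10 with the 9 values of the pooled libraries. Mecom and Hoxa10 had too few UMIs, and the 18 values share libraries and cell depth.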

How the data were processed

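Gene expression was measured in 2 technical replicate libraries of 1 E12.5 liver, with 51969226 and 62738015 UMIs in kept cells. The deposited matrices hold UMI counts per gene and barcode, which the authors made with bcl2fastq 2 and Cell Ranger 2.1.1 on the mm10 genome (the header of library 1 names version 3.0.0). The deposited cell table, from Seurat 3.2.0, gives cell names, types and subclusters as names only. Whether counting used strand is not given in the sources used here. The sort removed doublets before encapsulation, but it could not remove doublets formed in droplets, and no caller was run here. The part of such doublets in the counts of several genes per cell was not tested.

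UMIs were summed per type and library and given as counts per 1000000 (CPM). Intervals are exact 95% Poisson, Clopper-Pearson or conditional binomial intervals for counting error, and a count of 0 was set to a floor of 3. Cells are not replicates, so no test was made. Shares were thinned to 3600 UMIs as the mean over all draws. A gene was called at a 2-fold ratio in both libraries if it had at least 20 UMIs. Named genes were the 8 members, fixed lists, the 10 highest and 10 lowest genes of the split in library 1, and the 3 most similar genes of each member with at least 100 UMIs (Pearson's r of log2(CPM + 10)). Members and lists were chosen with earlier results of these data known, and the CRE letters after the sequences were seen. Alternatives covered depth, filters, fold, globin UMIs, depth classes and leaving out each library. Positions come from GENCODE vM21 and promoters from RefSeq (GRCm38.p6). Intervals came from scipy 1.17.1, sums from numpy 2.4.6 under Python 3.11.15 with pandas 2.3.3 for tables, and figures from matplotlib 3.10.9. Functions were tested on simulated data. No column of per-sample values was left out. Values of some listed genes are not reported here.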

Additional observations from a re-analysis of the deposited data

Results flagged for a closer look

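Barcodes with at least 1000 UMIs and 200 genes that were not in the kept table were not used in any comparison above, and in library 1 a signal of Mllt3 in them stood above the free RNA level. There were 168 such barcodes in library 1. They held 116 Mllt3 UMIs in 78 barcodes, or 293 CPM (242 to 352), against 198 CPM in the free RNA of that library. In library 2, 3311 such barcodes held 889 Mllt3 UMIs, or 132 CPM (123 to 141), against 143 CPM in free RNA. In neither library did any of these barcodes hold at least 3 of the 7 members other than Mllt3.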

How the results depend on the processing

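No paired analysis was possible because the libraries are technical replicates of 1 group and no result comes from a test. The share of HPSC with at least 1 member UMI moved from 88.8% to 56.4% after thinning to 3600 UMIs, to 74.8% after thinning to 7200 UMIs and to 75.1% when at least 2 UMIs were required. In the Hlf or Mecom split, the ratio moved from 2.51 to 4.31 for Hoxa9, from 1.70 to 4.07 for Msi2 and from 1.66 to 1.005 for Meis1 in cells without a UMI of Mpo, Elane, Prtn3, Cpa3, Pf4, Klf1 or Car1. This setting was chosen after seeing the data and left 11 against 17 cells. No interval was computed for its ratios. The summed free RNA level of the 8 members moved from 204 to 185 CPM in barcodes with 20 to 100 UMIs. With 1 library left out, the number of genes highest in HPSC stayed at 5 and members at least 2-fold higher at 7. Members called in both libraries reach the fold in each, so the 7 could fall only by the minimum of 20 UMIs. The share of HPSC with a member stayed at 88.5 to 89.2% and the Hoxa9 ratio at 2.39 to 2.67. Pairs above the product moved from 20 in both libraries to 24 in the 1 library left. That number could not fall, because pairs above in both libraries are above in each. In the Hlf or Mecom split, Gata2 changed sides, from 1.30 to 0.921 without library 2 and 2.02 without library 1. The highest type of Mllt3 became EryP without globin UMIs. Pairs above the product numbered 18 without the 5% deepest cells, 19 without depth classes, 20 with 8 classes and 18 at 7200 UMIs. The background share of genes at least 2-fold higher in HPSC ran from 20.3% without globin UMIs to 42.4% in library 2 alone. In the latter setting, the fold had to be reached in 1 library only. Genes under 20 UMIs and small types such as EC set the limits of counting. Beyond what these rules fix, the causes of these moves were not tested.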

Other observations

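Genes that lay closest to the summed level of the 8 genes over the 18 values were Pcmtd2 (r = 0.794), Nprl3 (0.770) and Fam109b (0.759). Among the 10 genes of the Hlf or Mecom split with the lowest ratios in library 1, Tnfrsf9 had 0 against 45 UMIs in library 1 and 0 against 2 in library 2. Nfil3 had ratios of 0.129 and 0.602, Cd7 of 0.0274 and 0.236 and Klrd1 of 0.0866 and 0.194. Among the 10 highest, Gbp2 had ratios of 14.5 and 2.92 and Oasl2 of 4.31 and 5.83. The Gbp2 ratio of library 2 came from 3 against 2 UMIs (0.334 to 34.9).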
